A study of Mus musculus with 19 samples.

Results

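The mitochondrially encoded protein genes were examined in RNA from the striatum of 19 male mice aged 4 months. The rule took every gene whose symbol starts with mt-, and 13 of the 49592 genes in the count files met it. All 13 encode subunits of the oxidative phosphorylation complexes. A reference table names 37 mitochondrial genes, and the other 24, which are 2 ribosomal RNAs and 22 transfer RNAs, were not analysed here. All 13 members passed the low-count filter, as did 21513 genes in all.

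Every mouse, control mice included, was D2RCre_floxCas9-EGFP, which means that Cre was driven by the D2 receptor gene and that Cas9-EGFP depended on Cre. PFC_D2R-KO mice received AAV5 D2R-sgRNA (a virus carrying guides against the D2 receptor gene) in the medial prefrontal cortex, and control mice received AAV5 syn-mCherry there. The tissue sequenced was the striatum, not the injected region. All mice were given saline for 5 days, and on day 9 a challenge of amphetamine at 3 mg/kg or of saline. The labels give tissue collection at 90 min after amphetamine and state no separate time for saline. The groups were amphetamine PFC_D2R-KO (n = 4), saline PFC_D2R-KO (n = 5), amphetamine control (n = 5) and saline control (n = 5), each library from 1 mouse. The authors' name for amphetamine against saline in PFC_D2R-KO mice ends in woVA7, and no library used here carries the label VA7. The name reads as a mouse left out of the amphetamine PFC_D2R-KO group, and no reason is given here.

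Mammalian mitochondria keep a small circular genome whose protein genes all encode core subunits of the oxidative phosphorylation complexes. Both of its strands are transcribed as long precursors, which are cut mostly at the transfer RNAs between the genes, and the messenger RNAs are then translated on mitochondrial ribosomes. The remaining subunits, the ribosomal proteins, the polymerase and the RNA-processing enzymes are encoded in the nucleus. Neurons, among them the projection neurons that are the main output cells of the striatum, depend heavily on oxidative phosphorylation. Pieces of mitochondrial DNA are also scattered through the nuclear genome, and some are annotated as pseudogenes.

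Library totals ran from 72759747 to 83149920 counts in amphetamine PFC_D2R-KO mice, from 75449097 to 85536346 in saline PFC_D2R-KO mice, from 57003408 to 80857642 in amphetamine control mice and from 65578294 to 75756345 in saline control mice. All 16 marker genes of striatal projection neurons were detected, with summed levels between 2864 and 9083 CPM (a count scaled to a common library size, with TMM factors). Saline PFC_D2R-KO mouse 3 stood apart: its nuclear complex I subunits summed to 4580 CPM, against 2848 to 3111 CPM in the other saline PFC_D2R-KO mice, and its haemoglobin and red cell genes to 421.3 CPM, against 66.0 to 161.2 CPM in the others. It lay farthest from the median library on the second principal component of all genes tested, saline control mouse 5 on the third, amphetamine PFC_D2R-KO mouse 3 on the fourth and amphetamine control mouse 3 on the first. Amphetamine PFC_D2R-KO mouse 2 had 687.6 CPM of choroid plexus genes, against 31.5 to 47.2 CPM in the others of its group. An alternative fit left out 4 libraries together, amphetamine PFC_D2R-KO mice 2 and 3, saline PFC_D2R-KO mouse 3 and saline control mouse 5, which were picked by eye after the data were seen. Many medians and counts are also given without saline PFC_D2R-KO mouse 3 or without those 4 libraries. Where none is given, the value can still have moved.

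Sequences are shown first, for members with and without a near-identical nuclear copy, because the counts of the copied members and of their copies are reported side by side. They were read from the GENCODE M21 transcripts (GRCm38), 5′ to 3′, with capitals at bases that differ between the lines compared. mt-Nd3, a complex I subunit gene (GRCm39, chrM:9459-9806, plus strand), is given by its first 240 bases beside Gm28438, an unprocessed pseudogene on chromosome 1. The substitution T3C, counted from the first base of the gene, is the only difference over the 345 bases aligned.
mt-Nd3: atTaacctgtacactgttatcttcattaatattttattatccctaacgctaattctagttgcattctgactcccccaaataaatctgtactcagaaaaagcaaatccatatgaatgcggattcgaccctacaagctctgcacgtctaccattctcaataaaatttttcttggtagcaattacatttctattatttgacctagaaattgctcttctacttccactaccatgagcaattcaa
Gm28438: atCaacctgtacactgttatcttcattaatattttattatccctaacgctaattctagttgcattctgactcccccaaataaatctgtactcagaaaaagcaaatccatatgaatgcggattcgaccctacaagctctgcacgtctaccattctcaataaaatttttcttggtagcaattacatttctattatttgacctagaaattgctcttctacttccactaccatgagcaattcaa

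The first 120 bases of mt-Co2, which encodes a complex IV subunit (chrM:7013-7696, plus strand), are identical to those of its copy Gm28661 on chromosome 1. They differ at 2 positions, C25T and G57A, from a second copy, Gm13341 on chromosome 2.
mt-Co2: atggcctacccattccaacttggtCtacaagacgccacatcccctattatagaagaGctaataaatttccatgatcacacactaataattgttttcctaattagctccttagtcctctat
Gm28661: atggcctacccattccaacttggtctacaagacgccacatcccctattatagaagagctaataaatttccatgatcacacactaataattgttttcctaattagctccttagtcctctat
Gm13341: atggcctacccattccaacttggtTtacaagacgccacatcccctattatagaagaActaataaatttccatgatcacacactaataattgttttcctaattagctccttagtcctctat

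mt-Nd6, a complex I subunit gene and the only member on the minus strand (chrM:13552-14070), shows the other case. Its closest annotated nuclear match, the processed pseudogene Gm11408 on chromosome 4, was 93.6% identical over the full length. The first 240 bases hold 9 of the differences.
mt-Nd6: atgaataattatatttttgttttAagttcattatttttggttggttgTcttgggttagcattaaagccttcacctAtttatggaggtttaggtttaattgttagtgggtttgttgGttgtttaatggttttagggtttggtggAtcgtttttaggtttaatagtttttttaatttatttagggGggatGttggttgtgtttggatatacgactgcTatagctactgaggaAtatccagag
Gm11408: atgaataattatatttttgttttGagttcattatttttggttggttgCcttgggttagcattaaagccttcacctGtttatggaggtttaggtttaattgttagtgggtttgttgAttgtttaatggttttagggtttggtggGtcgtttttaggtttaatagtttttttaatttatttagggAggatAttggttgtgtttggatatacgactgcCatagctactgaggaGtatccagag

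The copies on chromosome 1 form a single block. Its 7 annotated pseudogenes lie between positions 24650616 and 24655278 (GRCm39), a span of 4663 bases, and their matches on the mitochondrial genome span positions 6381 to 11042, or 4662 bases. Alignment was without a mismatch for Gm28661 against mt-Co2 (681 bases), Gm10925 against mt-Atp6 (678 bases), Gm28437 against mt-Co3 (783 bases), Gm10222 against mt-Nd4l (294 bases) and Gm28439 against mt-Nd4 (876 of its 1378 bases). Gm29216 matched the end of mt-Co1 at 99.8% over 483 bases. mt-Atp8, whose protein is a small ATP synthase subunit, has no annotated copy in the block. The interval between Gm28661 and Gm10925 is nevertheless 233 bases, the same length as the mitochondrial stretch that holds mt-Atp8, and only annotated transcripts were searched here.

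To put a number on the shared sequence, each gene was cut into all of its 50-base words, and the words that also occur in a nuclear transcript were counted. The share was 100% for mt-Co2, 99.9% for mt-Co3, 99.5% for mt-Atp6, 98.8% for mt-Nd4l and 98.0% for mt-Nd3. It was 62.2% for mt-Nd4 and 51.1% for mt-Co1, and 8.19% for mt-Nd2 and 7.61% for mt-Nd5. It was 0% for mt-Nd1, mt-Nd6, mt-Cytb and mt-Atp8. The word length is a choice made here, since the read length is not given in the sources used here.

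Other sequence features varied less. The share of G and C ran from 31.9% in mt-Atp8 to 41.1% in mt-Nd4l, and mt-Atp8 was the shortest gene at 204 bases. The first codon was GTG in mt-Nd1, ATA in mt-Nd2, ATT in mt-Nd3 and ATC in mt-Nd5, and ATG in the others. mt-Co3, mt-Nd4 and mt-Cytb end 1 base past a whole number of codons, since mitochondrial stop codons can be completed by the poly(A) tail.

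The levels covered a wide range, although the genes on the heavy-strand precursor are transcribed together. Levels are compared here per kilobase of gene, as means over the 19 libraries. mt-Co1, the catalytic core of complex IV, was highest at 11810 CPM per kb. mt-Cytb, the only mitochondrially encoded subunit of complex III, followed at 8724 CPM per kb. The complex I genes mt-Nd1, mt-Nd2, mt-Nd5 and mt-Nd4 stood at 6898, 4567, 3539 and 2906 CPM per kb. mt-Nd6 stood at 320.5 CPM per kb.

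The other 6 genes were far lower. mt-Nd3 stood at 108.0 CPM per kb, mt-Co2 at 35.5, mt-Co3 (the third complex IV subunit) at 26.1, mt-Atp6 (the proton channel subunit of ATP synthase) at 24.0, mt-Atp8 at 13.6 and mt-Nd4l, the smallest complex I subunit gene, at 6.30 CPM per kb. The 6 highest genes together held between 99.1% and 99.6% of the counts of the 13 genes in each library, and the 6 lowest between 0.156% and 0.285%. These 2 sets were formed after the levels were seen and carry no test. The order of the 13 group means was the same in all 4 groups. It was also kept in all 19 libraries for each pair of neighbours in it except 2: mt-Nd5 was above mt-Nd4 in 17 libraries, and mt-Co3 above mt-Atp6 in 15. Across mice the ranges of neighbours overlapped except at 3 steps, those from mt-Nd4 to mt-Nd6, from mt-Nd6 to mt-Nd3 and from mt-Nd3 to mt-Co2.

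**Figure D1:**
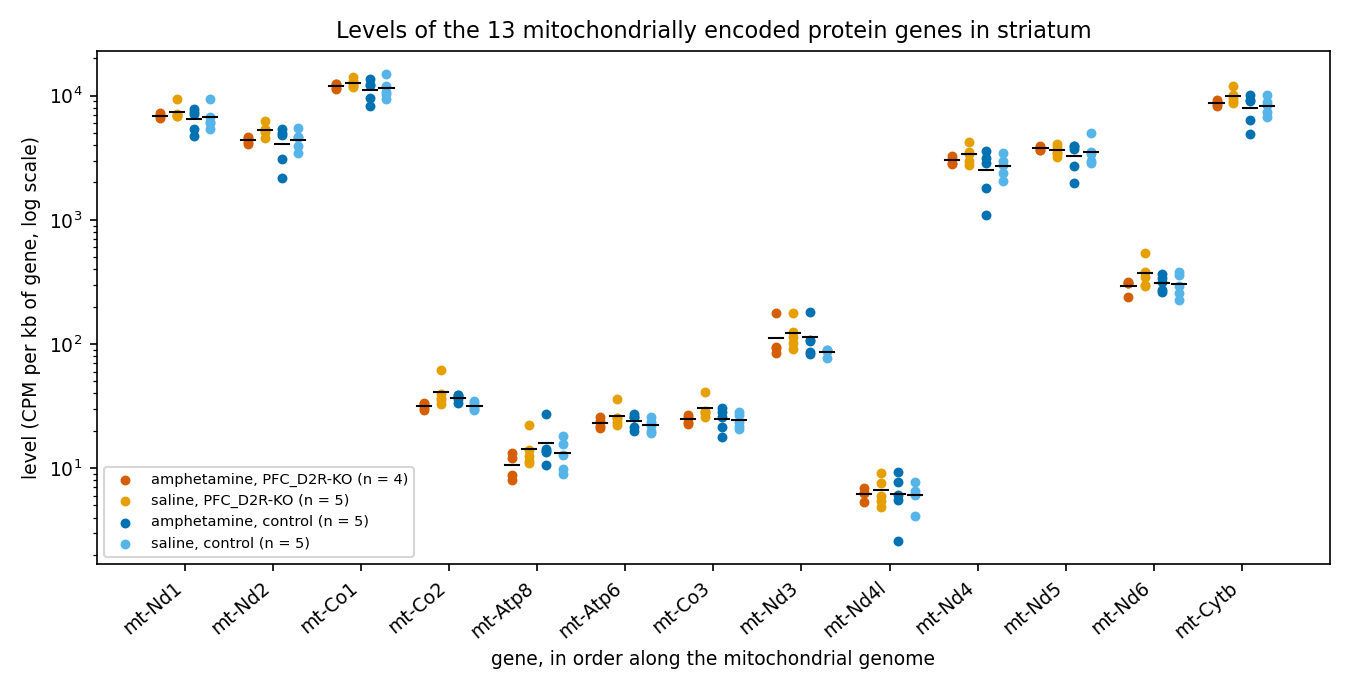
Level of each gene in CPM per kb of gene (log axis) in the 19 mice, in order along the mitochondrial genome; each point is 1 mouse, coloured by group, and short lines are group means. mt-Co1 averages 11810 and mt-Nd4l 6.30 CPM per kb, and the 5 genes from mt-Co2 to mt-Nd3 together with mt-Nd4l lie below all others in all 4 groups.

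The 5 genes with at least 90% of their words in nuclear transcripts were all among the low ones, at 6.30 to 108.0 CPM per kb. mt-Atp8 was as low without sharing a word, and mt-Co1 and mt-Nd4, which share 51.1% and 62.2% of theirs, were high. How reads that match more than 1 place were counted is not given in the sources used here, and its part in these levels was not tested. Neighbouring genes also overlap: mt-Atp8 and mt-Atp6 share 43 bases, mt-Nd4l and mt-Nd4 share 7, and mt-Nd5 and mt-Nd6, on opposite strands, share 14. The strand setting of the counting is not given in the sources used here either, so reads of mt-Nd6 and of heavy-strand RNA across it cannot be told apart.

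**Figure D2:**
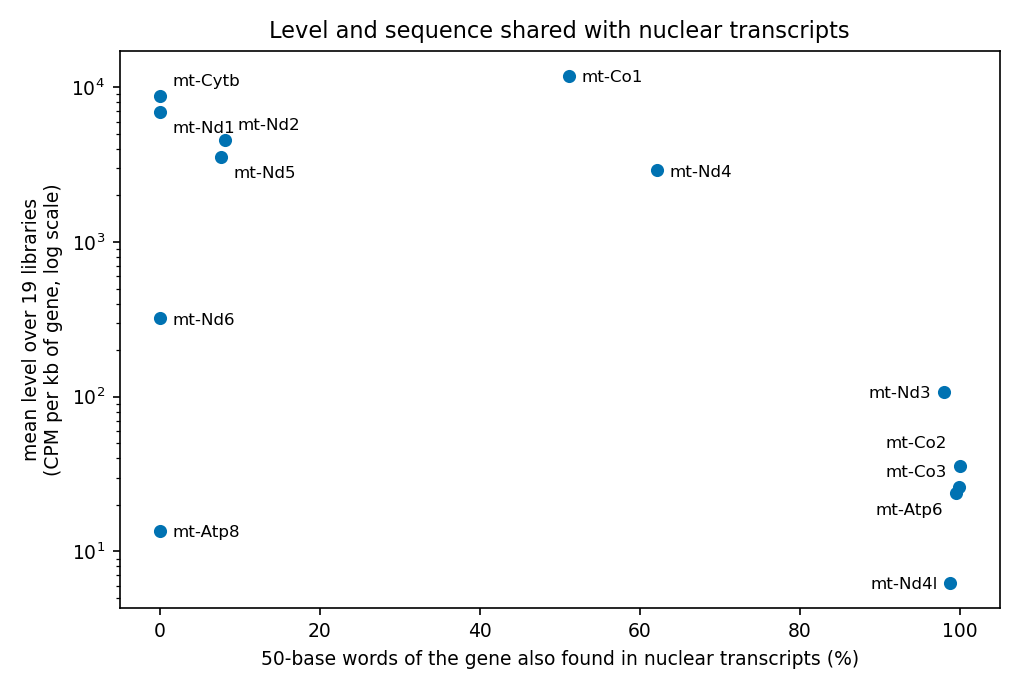
Share of each gene's 50-base words that also occur in a nuclear transcript (%) against its mean level over 19 libraries (CPM per kb of gene, log axis); each point is 1 gene. The 5 genes at 98.0% to 100% lie at or below 108.0 CPM per kb. mt-Atp8 lies at 13.6 CPM per kb with 0%, and mt-Co1 lies at 11810 CPM per kb with 51.1%. Only annotated transcripts were searched.

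The pseudogenes of the block had counts of their own in every library. Gm28661 had more counts than mt-Co2 throughout, with a median ratio of mt-Co2 to Gm28661 of 0.670 and a highest of 0.729. The median ratio was 0.361 for mt-Atp6 to Gm10925, 0.617 for mt-Co3 to Gm28437 and 0.736 for mt-Nd4l to Gm10222. mt-Nd3, which differs from its copy at 1 base, had a median of 10.8 counts for each count of Gm28438, and the ratio ran from 7.99 to 23.8. mt-Nd4, with only part of its length copied, had a median ratio of 227 to Gm28439. Per kb of gene, Gm28661, Gm10925, Gm28437 and Gm10222 stood at 53.5, 66.6, 42.2 and 9.01 CPM.

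**Figure D3:**
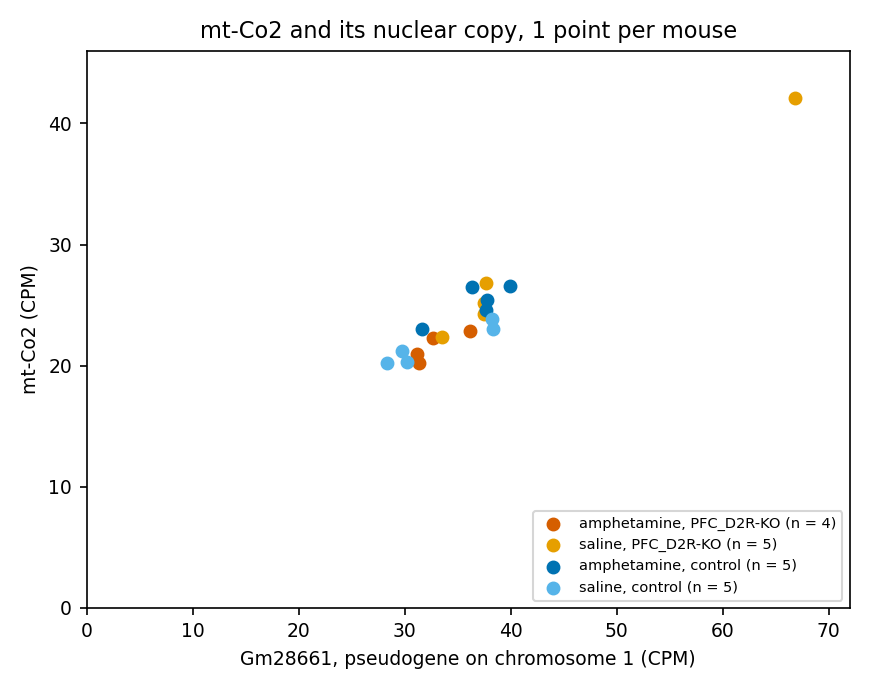
Level of mt-Co2 (CPM) against that of Gm28661, its copy on chromosome 1 (CPM); each point is 1 mouse, coloured by group. Saline PFC_D2R-KO mouse 3 lies alone at 42.1 CPM of mt-Co2 and 66.8 CPM of Gm28661, and the other 18 mice lie between 20.2 and 26.9 CPM of mt-Co2.

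Together the 13 genes gave a share of 3.03% to 6.25% of the library counts. Their share of the library was 5.27%, 5.14%, 4.84% and 5.26% in the 4 amphetamine PFC_D2R-KO mice, and 5.43%, 5.63%, 6.25%, 5.26% and 4.94% in the 5 saline PFC_D2R-KO mice. It was 3.03%, 3.77%, 5.24%, 5.19% and 5.73% in amphetamine control mice, and 4.37%, 5.07%, 4.04%, 4.83% and 6.15% in saline control mice. The groups overlapped in every pair. The means were 5.13% ± 0.199 in amphetamine PFC_D2R-KO mice (SD, n = 4), 5.50% ± 0.489 in saline PFC_D2R-KO mice (n = 5), 4.59% ± 1.14 in amphetamine control mice (n = 5) and 4.89% ± 0.808 in saline control mice (n = 5). The widest spread was in amphetamine control mice, where mice 1 and 2 lay below the rest. Those mice also had the lowest library totals of the group, 57003408 and 63808153 counts against 66190607 to 80857642 in the others. In saline PFC_D2R-KO mice the highest share went with the lowest total, that of mouse 3 at 75449097 counts. The part of depth in the share was not tested.

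**Figure D4:**
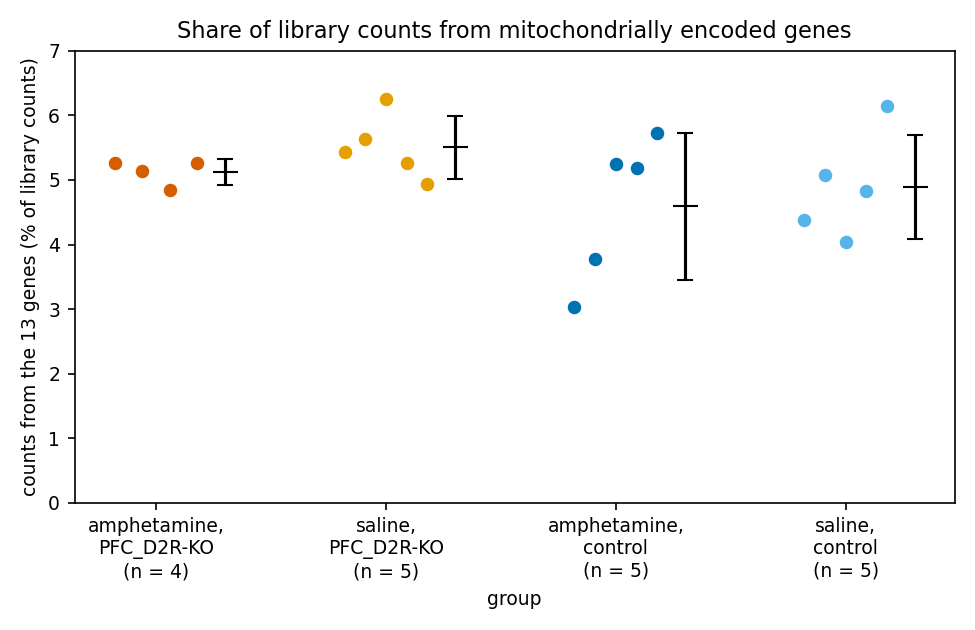
Share of library counts that came from the 13 genes (%), by group; points are mice, the bar beside them is the mean with its SD. Values run from 3.03% in amphetamine control mouse 1 to 6.25% in saline PFC_D2R-KO mouse 3, and all groups overlap.

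Much of the spread between mice was common to the abundant genes. Within groups the SD of log2 CPM was 0.214 for mt-Co1, 0.272 for mt-Cytb, 0.250 for mt-Nd1 and 0.415 for mt-Nd4. Taken as a share of the mitochondrial counts of the same library, the SD of the log2 share was 0.0560 for mt-Co1, 0.0478 for mt-Cytb, 0.0758 for mt-Nd1 and 0.180 for mt-Nd4. For 2 genes the share spread more widely than the level: mt-Nd6 had an SD of 0.281 in log2 CPM and 0.309 in log2 share, and mt-Co2 0.202 and 0.262. The SDs of mt-Atp8 were 0.433 and 0.431, and those of mt-Nd3 0.373 and 0.344. The share is computed from the same counts, and mt-Co1 and mt-Cytb make up much of its denominator.

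The comparisons between mice asked whether an acute dose of amphetamine, a drug that releases dopamine, changes striatal RNA, and whether the prefrontal D2 receptor knockout alters the response or the state after saline. None of the 13 genes passed the test in any of the 5 contrasts. Counts were tested with edgeR's quasi-likelihood test over all genes, with a call at a Benjamini-Hochberg adjusted p under 0.05. The share of all 21513 genes called was 0.00465% for amphetamine against saline in PFC_D2R-KO mice and 0.00465% in control mice, and 0% in each of the other 3 contrasts, so a count of 0 among 13 is also the background. DESeq2 and limma voom called 0 of the 13 as well. The smallest adjusted p any of the 13 reached in any setting tried was 0.0622. A p that misses the threshold does not show that the levels were alike.

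**Figure D5:**
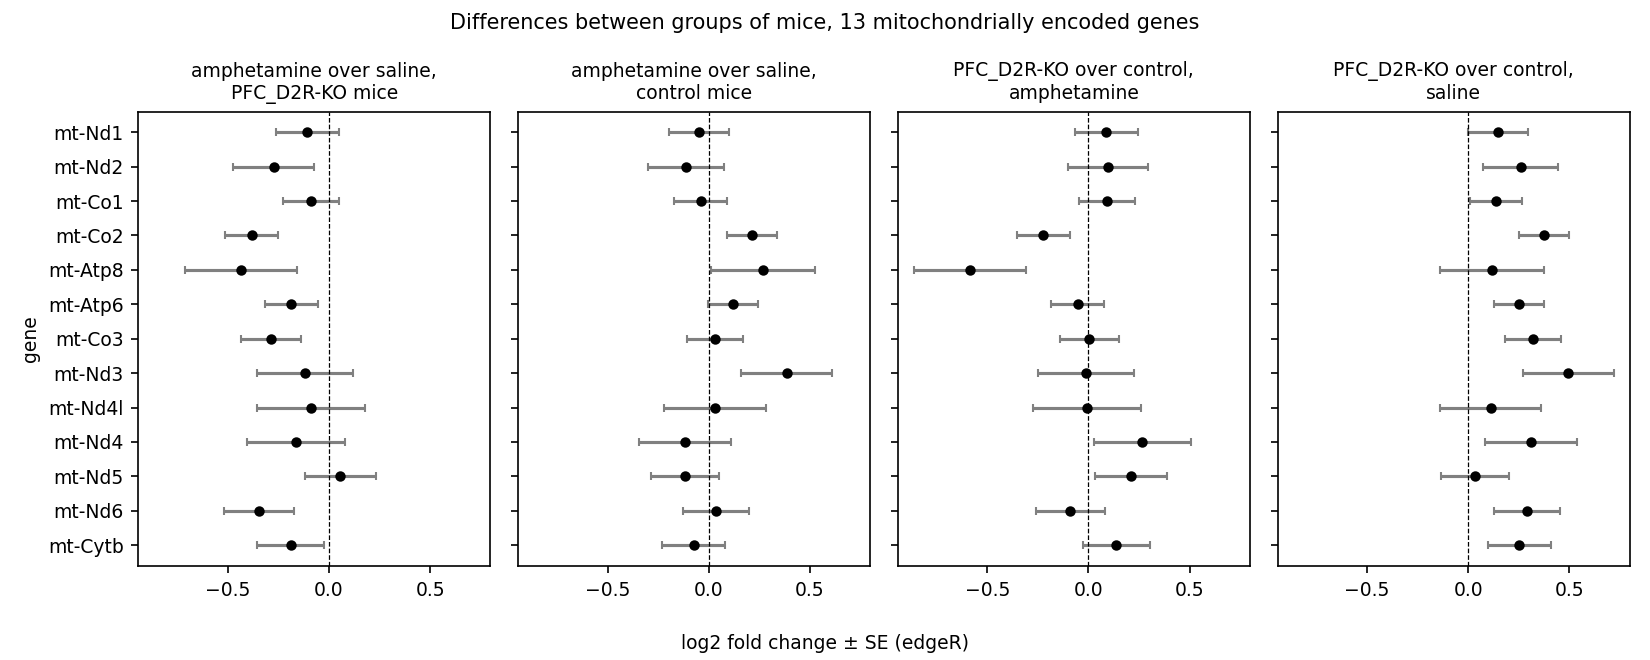
Log2 fold change with its SE (edgeR, 13 genes) for amphetamine over saline in PFC_D2R-KO and in control mice, and for PFC_D2R-KO over control under amphetamine and under saline; points are estimates, bars are 1 SE. In PFC_D2R-KO over control under saline all 13 points lie above 0, from 0.03 to 0.49, and no estimate shown passed the test.

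In PFC_D2R-KO mice, amphetamine against saline gave 12 of 13 estimates below 0, with a median log2 fold change of -0.19 over the 13 genes and -0.0059 over all genes tested. An unadjusted p under 0.05 was found for 1 of 13 (7.69%), against 12.1% of all genes, and none of the 13 had groups without overlap, against 5.07%. The gene with that p was mt-Co2. It had 22.3, 21.0, 20.2 and 22.8 CPM in amphetamine PFC_D2R-KO mice, and 22.3, 25.1, 42.1, 24.3 and 26.9 CPM in saline PFC_D2R-KO mice. The groups overlapped at their edge, and mouse 3 was the highest of the saline group by a wide margin. By edgeR the log2 fold change of mt-Co2 was -0.38 ± 0.132 (SE; adjusted p = 0.291). Without saline PFC_D2R-KO mouse 3 it was -0.19 ± 0.0736 (adjusted p = 0.442 by edgeR).

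mt-Nd6, read from the other strand, had 123.1, 163.2, 160.0 and 159.6 CPM in amphetamine PFC_D2R-KO mice, and 153.2, 196.6, 277.9, 179.8 and 155.1 CPM in saline PFC_D2R-KO mice. Mouse 1 of the amphetamine group was the lowest and mouse 3 of the saline group the highest, and the groups overlapped. Its log2 fold change was -0.35 ± 0.173 (SE; adjusted p = 0.428 by edgeR), and -0.18 without saline PFC_D2R-KO mouse 3. The lowest estimate was that of mt-Atp8, -0.43 ± 0.276, and the highest that of mt-Nd5, 0.06 ± 0.177. mt-Nd5 encodes a proton-pumping subunit of complex I.

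mt-Co1, the most abundant member, had 19200, 17390, 17800 and 19200 CPM in amphetamine PFC_D2R-KO mice, and 19060, 20240, 21860, 18090 and 18460 CPM in saline PFC_D2R-KO mice. mt-Cytb had 10160, 9394, 9740 and 10550 CPM in amphetamine PFC_D2R-KO mice, and 10970, 11630, 13780, 10420 and 10020 CPM in saline PFC_D2R-KO mice. Both genes overlapped between the groups, with mouse 3 of the saline group highest. Their log2 fold changes were -0.09 ± 0.138 for mt-Co1 and -0.19 ± 0.166 for mt-Cytb. The median over the 13 genes was -0.11 without saline PFC_D2R-KO mouse 3, and 2 of 13 estimates were then above 0. Without the 4 libraries it was -0.06, with 5 of 13 above 0. In the authors' deposited table of this comparison, which calls 0.665% of its genes, the smallest adjusted p among the 13 was that of mt-Nd2 (0.261).

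In control mice, amphetamine against saline gave 7 of 13 estimates above 0, with a median of 0.03 over the 13 genes and -0.0074 over all genes. None of the 13 had an unadjusted p under 0.05, against 11.8% of all genes, and none had groups without overlap, against 3.9%. mt-Co2 again had the smallest p, with an estimate above 0. Its levels were 26.5, 23.0, 25.4, 24.6 and 26.6 CPM in amphetamine control mice, and 20.2, 23.0, 20.3, 21.2 and 23.9 CPM in saline control mice. Mouse 2 of the amphetamine group lay below mouse 5 of the saline group, and the other mice of the amphetamine group lay above the whole saline group. The log2 fold change was 0.22 ± 0.124 (SE; adjusted p = 0.513 by edgeR). In the authors' deposited table it was 0.22 ± 0.0743 with an adjusted p of 0.0689, the smallest among the 13 genes there, where 4.21% of all genes were called.

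mt-Co1 had 12650, 14830, 18930, 18780 and 21230 CPM in amphetamine control mice, and 16090, 18460, 14630, 16600 and 23070 CPM in saline control mice. mt-Cytb had 5646, 7259, 10320, 10570 and 11510 CPM in amphetamine control mice, and 8515, 10150, 7735, 9620 and 11650 CPM in saline control mice. Mice 1 and 2 of the amphetamine group were the lowest for mt-Cytb, and the groups overlapped for both genes. The log2 fold changes were -0.04 ± 0.130 for mt-Co1 and -0.07 ± 0.156 for mt-Cytb.

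Single amphetamine control mice weighed on this comparison in both directions. Without mouse 5 only 4 of 13 estimates were above 0 and their median was -0.13, and without mouse 3 it was 5 of 13 with a median of -0.06. Mouse 1 was low. It had 1516 CPM of mt-Nd4, against 2502 to 4971 CPM in the other amphetamine control mice, and 0.775 CPM of mt-Nd4l, against 1.63 to 2.75 CPM. Without mouse 1 all 13 estimates were above 0 and their median was 0.08, and without the 4 libraries 11 of 13 were above 0 with a median of 0.09. Leaving out 1 mouse at a time from either group gave medians from -0.13 to 0.09, so no direction of the 13 genes is given for this comparison. The highest estimate with all mice was that of mt-Nd3, 0.38 ± 0.224 (SE; adjusted p = 0.523 by edgeR), where mouse 3 of the amphetamine group stood at 62.8 CPM and its other mice between 28.99 and 37.62 CPM. The lowest was that of mt-Nd5, -0.12 ± 0.167.

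Under amphetamine, PFC_D2R-KO against control mice gave 7 of 13 estimates above 0, with a median of 0.0048 over the 13 genes and 0.0049 over all genes. That median depended on single mice: it was 0.17 without amphetamine control mouse 5, 0.13 without amphetamine control mouse 3 and -0.07, with 3 of 13 above 0, without amphetamine control mouse 1. Without the 4 libraries it was 0.09, with 9 of 13 above 0. For 1 gene (7.69%) the test gave an unadjusted p under 0.05, against 12.8% of all genes. It was mt-Atp8, with 2.71, 1.79, 1.65 and 2.45 CPM in amphetamine PFC_D2R-KO mice, and 2.78, 2.15, 2.91, 2.75 and 5.52 CPM in amphetamine control mice. Mouse 5 of the control group was well above the others, and the groups overlapped. At a mean of 207.7 counts a library mt-Atp8 was the second least counted member. Its log2 fold change was -0.59 ± 0.277 (SE; adjusted p = 0.385 by edgeR), and -0.30 ± 0.250 without amphetamine control mouse 5 (adjusted p = 0.676 by edgeR).

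The levels of mt-Co2 did not overlap between these groups, at 20.2 to 22.8 CPM in amphetamine PFC_D2R-KO mice and 23.0 to 26.6 CPM in amphetamine control mice. It was the only 1 of the 13 with this property, which 6.79% of all genes had. Its log2 fold change was -0.22 ± 0.132 (SE; adjusted p = 0.511 by edgeR). The highest estimate was that of mt-Nd4, which encodes another proton-pumping subunit of complex I, at 0.27 ± 0.240. It was 0.07 without amphetamine control mouse 1, whose mt-Nd4 level was the lowest.

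Under saline, PFC_D2R-KO against control mice gave estimates above 0 for all 13 genes, against 51.0% of all genes tested. The median was 0.25 over the 13 genes and 0.0046 over all genes. Unadjusted p-values under 0.05 were found for 3 of 13 genes (23.1%), against 7.94% of all genes, and none was called. Members of a shared precursor are not independent of each other, so the count carries no test. The 3 genes were mt-Co2 at 0.37 ± 0.124 (SE), mt-Co3 at 0.32 ± 0.139 and mt-Nd3 at 0.49 ± 0.224, and all had the adjusted p of 0.614 in edgeR. Library totals also ran higher in saline PFC_D2R-KO mice, at 75449097 to 85536346 counts against 65578294 to 75756345 in saline control mice. The part of depth in these estimates was not tested.

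mt-Co2 overlapped between saline PFC_D2R-KO and saline control mice at the edge, with the levels given for the amphetamine comparisons. mt-Nd3 had 43.3, 39.9, 61.8, 35.2 and 31.8 CPM in saline PFC_D2R-KO mice, and 31.2, 30.8, 27.0, 31.0 and 30.4 CPM in saline control mice. The groups did not overlap, though mouse 5 of the PFC_D2R-KO group lay just above the control range. Among all genes, 0.911% had no overlap. mt-Nd3 was singled out after its values were seen. mt-Nd6 had 153.2 to 277.9 CPM in saline PFC_D2R-KO mice, and 116.6, 152.2, 133.1, 196.8 and 187.7 CPM in saline control mice. Its log2 fold change was 0.29 ± 0.162 (adjusted p = 0.623 by edgeR).

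Saline PFC_D2R-KO mouse 3 also moved this comparison. Without it all 13 estimates were still above 0, and their median was 0.15. Without the 4 libraries 13 of 13 were above 0 and the median was 0.23. Leaving out any 1 mouse gave 12 or 13 above 0, with medians from 0.15 to 0.33. The count of genes with an unadjusted p under 0.05 by edgeR then ran from 1 to 4 of 13. It was 1 of 13 without saline PFC_D2R-KO mouse 3, against 978 of 21427 genes in all. Without the 4 libraries it was also 1 of 13, against 1276 of 22138 genes in all. With saline PFC_D2R-KO mouse 3 left out, the log2 fold change of mt-Co2 was 0.18 ± 0.0697 (SE). That of mt-Co3 was 0.19 ± 0.125 and that of mt-Nd3 0.31 ± 0.221, and the smallest adjusted p of the 3 was 0.986 by edgeR. The proportions within the mitochondrial RNA of that mouse differed too. Its ratio of mt-Nd5 to mt-Nd1, both per kb, was 0.345, against 0.497 to 0.570 in the other saline PFC_D2R-KO mice, and its ratio of mt-Nd6 to mt-Nd5 was 0.166, against 0.0852 to 0.0926. Among amphetamine control mice, mouse 1 had a ratio of mt-Nd6 to mt-Nd5 of 0.172, against 0.0700 to 0.101 in the others.

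For mt-Atp8 under saline the levels were 2.86, 2.25, 2.56, 4.52 and 2.33 CPM in PFC_D2R-KO mice, and 1.99, 2.62, 3.73, 1.84 and 3.22 CPM in control mice. The groups overlapped over most of their range, and the log2 fold change was 0.12 ± 0.258 (SE). The estimates for mt-Co1 and mt-Cytb were 0.14 ± 0.130 and 0.25 ± 0.156, and that for mt-Nd5, the lowest, was 0.03 ± 0.167. In the authors' deposited table of this comparison, which calls 0.00439% of its genes, the smallest adjusted p among the 13 was 0.900.

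The amphetamine response in PFC_D2R-KO mice minus that in control mice was tested as a difference in its own right. Estimates were below 0 for 12 of 13 genes, with a median of -0.16 over the 13 genes and 0.0064 over all genes. The median was -0.04 without amphetamine control mouse 5, with 5 of 13 above 0, -0.07 without amphetamine control mouse 3 and -0.32 without amphetamine control mouse 1. With the replicate block it was -0.09, with 4 of 13 above 0. Without saline PFC_D2R-KO mouse 3 it was -0.15, with 4 of 13 above 0. Without the 4 libraries it was -0.11, with 1 of 13 above 0. The unadjusted p was under 0.05 for 1 gene (7.69%), against 9.25% of all genes. That gene was mt-Co2, at -0.60 ± 0.181 (SE; adjusted p = 0.519 by edgeR). Without saline PFC_D2R-KO mouse 3 it was -0.40 ± 0.0988 (adjusted p = 0.532 by edgeR). The lowest estimate was that of mt-Atp8, -0.70 ± 0.377, and the highest that of mt-Nd5, 0.17 ± 0.243. This difference, both amphetamine comparisons and the saline comparison share groups of mice and are not independent of each other.

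The 7 pseudogenes of the chromosome 1 block were tested in the same fit. Amphetamine against saline in PFC_D2R-KO mice gave 0 of 7 above 0, with a median of -0.24, and PFC_D2R-KO against control under saline gave 7 of 7 above 0, with a median of 0.31. The difference of the responses gave 0 of 7 above 0, with a median of -0.34. Without saline PFC_D2R-KO mouse 3 the 3 medians were -0.13, 0.14 and -0.22, with the same counts above 0. Without the 4 libraries they were -0.03 (3 of 7 above 0), 0.21 and -0.24. In control mice amphetamine against saline gave 6 of 7 above 0 with a median of 0.09, and without the 4 libraries 7 of 7 with a median of 0.17. None was called in any contrast. Gm28661 had 66.8 CPM in saline PFC_D2R-KO mouse 3, against 33.5 to 37.7 CPM in the other saline PFC_D2R-KO mice. When the counts of each pseudogene were added to those of its mitochondrial gene, 0 of the 13 were called in any contrast.

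The nuclear genes that serve the mitochondrial genome were read from fixed lists. None of their genes was called in any contrast, so the counts given are of signs only. The all-gene medians with all mice are those given above for each contrast. Those of the fits that leave out libraries are not given. In PFC_D2R-KO against control under saline, estimates were above 0 for 36 of 37 nuclear complex I subunits (median 0.18), 4 of 4 of complex II (0.12), 9 of 9 of complex III (0.13), 11 of 11 of complex IV (0.20) and 18 of 18 of complex V (0.17), against an all-gene median of 0.0046. All 78 mitochondrial ribosomal proteins were above 0 with a median of 0.15, but without saline PFC_D2R-KO mouse 3 the count was 59 of 78 and the median 0.05. Mrpl42, a protein of the large mitochondrial ribosomal subunit, had the smallest p of its list, at 0.37 ± 0.118 (SE; adjusted p = 0.614 by edgeR), and at 0.24 without that mouse.

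These nuclear lists also rested on saline PFC_D2R-KO mouse 3. The 79 nuclear subunits of the 5 complexes summed to 10310, 11450, 16230, 10930 and 11700 CPM in saline PFC_D2R-KO mice, and 10770, 11340, 10620, 11190 and 11620 CPM in saline control mice. The third mouse of the PFC_D2R-KO group stood alone. Estimates were above 0 for 78 of 79 with it and 48 of 79 without it, and their median was 0.17 with it and 0.02 without it. For the 13 mitochondrial genes the count was 13 with it and 13 without it, and the median 0.25 and 0.15. Without the 4 libraries 55 of the 79 nuclear subunits were above 0, with a median of 0.03.

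In PFC_D2R-KO mice after amphetamine against saline, all 79 nuclear subunits had estimates below 0, with a median of -0.20. Without the 4 libraries there were 57 of 79 below 0 and a median of -0.04. Without saline PFC_D2R-KO mouse 3 there were 62 of 79 below 0 and a median of -0.05. Ndufb2, an accessory subunit of complex I, had the smallest p of the complex I list, at -0.37 ± 0.104 (SE; adjusted p = 0.278 by edgeR), and at -0.24 without that mouse. In control mice after amphetamine 58 of 79 were above 0, with a median of 0.03, and under amphetamine PFC_D2R-KO against control gave 18 of 79 above 0, with a median of -0.08.

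Of the genes that transcribe and maintain the mitochondrial genome, 13 of 16 had estimates above 0 in PFC_D2R-KO against control under saline, with a median of 0.09, and 12 of 16 with a median of 0.04 without saline PFC_D2R-KO mouse 3. Mterf2, of the mitochondrial transcription termination factor family, stood at 0.28 ± 0.0928 (SE; adjusted p = 0.614 by edgeR), and at 0.23 without that mouse. Of the 33 genes for mitochondrial RNA processing and stability 24 were above 0 with a median of 0.045, and without that mouse 20 with a median of 0.03. Slirp, the partner of Lrpprc in stabilising mitochondrial messenger RNA, stood at 0.29 ± 0.112 (adjusted p = 0.614 by edgeR), and at 0.16 without that mouse. Of the 17 mitochondrial aminoacyl-tRNA synthetases 8 were above 0 with a median of -0.02, and without that mouse 5 with a median of -0.0063. Of the 12 regulators of mitochondrial biogenesis 4 were above 0 with a median of -0.03, and without that mouse 5 with a median of -0.04. Ppargc1b, a coactivator of genes for oxidative metabolism, stood at -0.39 ± 0.143 (adjusted p = 0.614 by edgeR), and at -0.26 without that mouse.

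Markers of other cells and of nuclear RNA were read in the same way, and not every list or contrast is given. Nuclear-retained RNAs, such as Malat1, had estimates above 0 for 1 of 8 in PFC_D2R-KO against control under saline (median -0.24) and for 6 of 8 in amphetamine against saline in PFC_D2R-KO mice (median 0.23). Without saline PFC_D2R-KO mouse 3 the counts were 1 and 7 of 8 and the medians -0.18 and 0.18. Without the 4 libraries the counts were 1 and 7 of 8 and the medians -0.27 and 0.14. Their sums ran from 4727 to 5506 CPM in amphetamine PFC_D2R-KO mice, 4037 to 4819 in saline PFC_D2R-KO mice, 4052 to 5018 in amphetamine control mice and 4495 to 6314 in saline control mice. Striatal projection neuron markers had 0 of 16 above 0 in PFC_D2R-KO against control under amphetamine (median -0.76). Under saline that comparison gave 6 of 16 (-0.04). Amphetamine against saline gave 16 of 16 in control mice (0.45) and 1 of 16 in PFC_D2R-KO mice (-0.22). Their sums were 2864 to 6962 CPM in amphetamine PFC_D2R-KO mice and 7110 to 9083 CPM in amphetamine control mice. In saline PFC_D2R-KO mice they were 4139 to 7141 CPM, and in saline control mice 4949 to 6863 CPM. The lowest of these sums, 2864 and 4117 CPM, were those of amphetamine PFC_D2R-KO mice 3 and 2. Without the 4 libraries PFC_D2R-KO against control gave 0 of 16 under amphetamine (-0.33) and 2 of 16 under saline (-0.15). Amphetamine against saline then gave 16 of 16 in control mice (0.38) and 14 of 16 in PFC_D2R-KO mice (0.20). Choroid plexus genes summed to 687.6 CPM in amphetamine PFC_D2R-KO mouse 2 and to at most 72.5 CPM in the amphetamine control mice, and none of their 8 genes was at 0 throughout. Counts above 0 follow for amphetamine against saline in control mice and for PFC_D2R-KO against control under amphetamine, in that order. Hypothalamic and basal forebrain markers had 0 and 10 of 10 (medians -1.20 and 1.33). Ependymal markers had 0 and 10 of 10 (-0.67 and 0.54). Cortical projection neuron markers had 12 and 7 of 12 (0.69 and 0.01). Without the 4 libraries these medians were -1.24 and 0.62, -0.65 and 0.27, and 0.86 and -0.10. The part of any of these in the mitochondrial values was not tested. In bulk tissue, fewer cells of a type and less RNA per cell cannot be told apart.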

How the data were processed

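Gene counts of 19 striatal libraries were used as deposited, as whole numbers per gene. The submitters' processing notes name HTSeq 0.6.1p2, STAR 2.6.0c, Trim Galore 0.5.0, FastQC 0.11.5, DESeq2 1.26.0s, R 3.6.1 and the build GRCm39. Nothing in the sources used here states the handling of reads with several matches, the strand setting, the annotation release, the library chemistry or the read length. The log2 fold changes, p-values and FPKM of the authors' deposited tables come from 3 comparisons per the file headers, with DESeq2. Symbols and GRCm39 coordinates came from those tables, which name 22901 genes. Within the 13 genes the deposited FPKM divided by a value rebuilt from the counts and full gene length lay between 0.954 and 1.04.

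Counts were fitted in R 4.3.3 with edgeR 4.0.16 (filterByExpr, TMM, robust quasi-likelihood), as 4 group means over all 19 libraries, with 5 contrasts and Benjamini-Hochberg adjustment over the 21513 genes tested. Each SE was obtained by dividing a log2 fold change by the square root of its F statistic. The fit was run on simulated counts with the same dispersion for every gene and no outlying libraries. That run checks the code and does not show which changes these data could reveal. Alternatives were DESeq2 1.42.0, limma 3.58.1 (voom), other scalings and sample sets. No pair of libraries was a copy of the other (smallest chi-square per gene 11.2 over 171 pairs). Shared sequence was searched with blastn 2.17.0 and 50-base words in the annotated transcripts of GENCODE M21 (GRCm38), where the mitochondrial gene coordinates equalled the deposited ones. The mice are separate animals by their titles. Counting error was not separated from the spread between mice.

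The members, gene lists and tests were chosen with earlier results of these data known. The rule for named genes named all 13 with their levels. Values in every library were given for mt-Co1, mt-Cytb, mt-Nd6, mt-Atp8 and the gene of smallest p in each contrast, and at most 2 genes of each nuclear list were named.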

Additional observations from a re-analysis of the deposited data

Results flagged for a closer look

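Within groups of 4 or 5 mice, 84 sets of values were examined for a mouse far from the nearest other. The rule picks about 1 in 20 single sets by chance. These sets are of linked genes, and of shares and ratios of the same counts, in the same mice. They are not independent, so the number picked out carries no test. In all, 15 sets were picked out. Saline PFC_D2R-KO mouse 3 gave 7 of them. It was the highest of its group for mt-Nd1 (8962 CPM), mt-Co2 (42.06 CPM), mt-Co3 (31.96 CPM) and mt-Atp6 (24.32 CPM). Its 6 abundant genes held 99.30% of the mitochondrial counts, the lowest share of its group, and its 6 scarce ones 0.2602%, the highest. Its ratio of mt-Nd6 to mt-Nd5 per kb, 0.1657, was also the highest of the group. The nuclear subunits of the oxidative phosphorylation complexes were highest in that mouse too, as given above, and a common source was not tested.

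mt-Nd3 was high in amphetamine PFC_D2R-KO mouse 2 (61.50 CPM) and in amphetamine control mouse 3 (62.79 CPM), and low in saline control mouse 3 (26.96 CPM). In that amphetamine PFC_D2R-KO mouse the 6 scarce genes held 0.2432% of the mitochondrial counts, the most in its group. mt-Atp8 was high in saline PFC_D2R-KO mouse 4 (4.523 CPM) and in amphetamine control mouse 5 (5.516 CPM). mt-Nd6 was low in amphetamine PFC_D2R-KO mouse 1 (123.1 CPM). The ratio of mt-Nd5 to mt-Nd1 per kb was low in amphetamine control mouse 1, at 0.4166.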

How the results depend on the processing

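None of the 13 genes was called in any contrast under any of the 29 alternatives, 19 of which leave out 1 mouse each, and over 1378 refitted values the smallest adjusted p was 0.0622 (mt-Co2, amphetamine against saline in control mice, without the 4 libraries named above). That setting and the sum with the chromosome 1 copies were added after the data were seen. Scaling without the mitochondrial genes gave the same counts of calls as the fit reported. The number of all genes called did depend on the choice. For amphetamine against saline in PFC_D2R-KO mice it was 1 in the fit reported, 96 with DESeq2, 3 with limma voom, 5 with the replicate block, 3 without the 4 libraries and 0 when only the groups compared were fitted. For amphetamine against saline in control mice it was 1, and 199 with DESeq2, 75 with only the groups compared and 183 without the 4 libraries. For PFC_D2R-KO against control under amphetamine it was 0, and 103 with DESeq2 and 1 without the 4 libraries, and for the difference of the responses 0, and 14 with DESeq2. Leaving out 1 mouse at a time gave 0 to 3 in PFC_D2R-KO and 0 to 4 in control mice for amphetamine against saline. Mouse numbers did not pair the mice: correlations of same-numbered mice ran from -0.221 to 0.154, and 2 of 18 were best with their own number. The share of the library with each mouse left out in turn stayed between 5.08% and 5.22% in amphetamine PFC_D2R-KO mice. It stayed between 5.32% and 5.64% in saline PFC_D2R-KO, 4.31% and 4.98% in amphetamine control and 4.58% and 5.11% in saline control mice. All 13 encode proteins, so leaving out non-coding members could change nothing and is no test.

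Of the 65 log2 fold changes of single members, 31 changed sign somewhere, none of them larger than 0.27 in size in the fit reported; the cause was not tested. Without the 4 libraries mt-Nd1 was 0.015, mt-Co1 0.015, mt-Atp6 0.049 and mt-Nd4 0.011 in amphetamine against saline in PFC_D2R-KO mice; mt-Nd1 was 0.093, mt-Co1 0.067, mt-Nd5 0.036 and mt-Cytb 0.004 in amphetamine against saline in control mice; mt-Atp6 was 0.0499 and mt-Nd4l 0.077 in PFC_D2R-KO against control under amphetamine; mt-Nd4 was 0.0302 and mt-Nd5 -0.029 in the difference of the responses. With limma voom mt-Nd4l was -0.024 in amphetamine against saline in control mice; mt-Nd4l was 0.077 in PFC_D2R-KO against control under amphetamine; mt-Nd4 was 0.071 in the difference of the responses. Without the low-count filter mt-Co3 was -0.0026 in PFC_D2R-KO against control under amphetamine. With the copies added mt-Co3 was -0.0005 in PFC_D2R-KO against control under amphetamine. With library totals only mt-Nd3 was 0.031 and mt-Nd4l 0.025 in PFC_D2R-KO against control under amphetamine. With the replicate block mt-Nd4l was 0.048 in PFC_D2R-KO against control under amphetamine; mt-Nd1 was 0.0087, mt-Co1 0.0059 and mt-Nd4 0.052 in the difference of the responses. With 1 mouse left out at a time, 25 crossed 0. For amphetamine against saline in PFC_D2R-KO mice the ranges were -0.43 to 0.056 for mt-Nd3 and -0.18 to 0.061 for mt-Nd4l. For amphetamine against saline in control mice the ranges were -0.13 to 0.093 for mt-Nd1, -0.24 to 0.055 for mt-Nd2, -0.13 to 0.067 for mt-Co1, -0.022 to 0.42 for mt-Atp8, -0.055 to 0.13 for mt-Co3, -0.29 to 0.078 for mt-Nd4, -0.20 to 0.036 for mt-Nd5, -0.051 to 0.13 for mt-Nd6, -0.18 to 0.062 for mt-Cytb and -0.16 to 0.23 for mt-Nd4l. For PFC_D2R-KO against control under amphetamine the ranges were -0.011 to 0.17 for mt-Nd1, -0.068 to 0.22 for mt-Nd2, -0.0074 to 0.17 for mt-Co1, -0.095 to 0.087 for mt-Co3, -0.32 to 0.23 for mt-Nd3 and -0.20 to 0.18 for mt-Nd4l. For PFC_D2R-KO against control under saline the ranges were -0.11 to 0.26 for mt-Atp8, -0.037 to 0.19 for mt-Nd5 and -0.043 to 0.21 for mt-Nd4l. For the difference of the responses the ranges were -0.20 to 0.047 for mt-Nd1, -0.15 to 0.043 for mt-Co1, -0.23 to 0.13 for mt-Nd4 and -0.31 to 0.073 for mt-Nd4l. At these depths mt-Nd4l, the least counted member, had a mean of 140.5 counts a library and a lowest of 44, in amphetamine control mouse 1. Whether counting error or the number of mice limits the precision was not tested.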

Other observations

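A second set of annotated copies lies on chromosome 2, and it has sequence of its own, with 17 mismatches over 510 aligned positions in Gm13339 (mt-Nd2), 37 over 1545 in Gm13340 (mt-Co1) and 16 over 684, gaps not counted, in Gm13341 (mt-Co2). In amphetamine against saline in PFC_D2R-KO mice their log2 fold changes were -0.42 ± 0.140 (SE) for Gm13339, -0.29 ± 0.123 for Gm13340 and -0.41 ± 0.135 for Gm13341, with adjusted p of 0.286, 0.364 and 0.286 by edgeR. Without saline PFC_D2R-KO mouse 3 they were -0.31, -0.27 and -0.26, and without the 4 libraries -0.19, -0.20 and -0.30. In control mice they were 0.25 ± 0.132, 0.23 ± 0.115 and 0.24 ± 0.126, with adjusted p of 0.465, 0.435 and 0.471 by edgeR, and without the 4 libraries 0.29, 0.26 and 0.31. None was called, and these comparisons share no mice.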
